A study of Mus musculus with 12 samples.

Results

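H3K27me3, trimethylation of lysine 27 on histone H3, was mapped by chromatin immunoprecipitation and sequencing (ChIP-seq) in mouse melanoma cells with intact KMT2D (WT) or mutant KMT2D, with 1 library per genotype. The members are all peaks of the 2 H3K27me3 lists that the authors deposited, 13277 in WT and 14712 in the mutant, together 27989 of the 173601 peaks in the 10 lists of the series. They were taken by sample title, and the WT and mutant lists are compared only with each other.

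Tumours on the ears of iBIP mice, of mixed FVB and B6 background, gave the cells. Both genotypes carried Tyr-CreERT2, a tamoxifen-activated Cre under a melanocyte promoter, and also Rosa26-rtta, TetO-BRAFV600E, PTENL/L and INK/ARFL/L. Doxycycline was given to both, with 4-OHT at 1 uM applied to the ear. WT cells were from iBIP;KMT2D+/+ mice and mutant cells from iBIP;KMT2DL/L mice, whose KMT2D alleles are conditional. The labels do not say how many animals or cultures stand behind a library, nor give an age. KMT2D loss itself cannot be checked in a peak list, and neither can the cell type.

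H3K27me3 is placed by Polycomb repressive complex 2 and is bound by CBX proteins of Polycomb repressive complex 1. In differentiated cells it covers developmental regulator genes that are kept silent, often over long continuous domains. KMT2D places H3K4me1 at enhancers and sits in a complex with UTX, an enzyme that removes methyl groups from H3K27. The comparison asks how H3K27me3 is spread over the genome when KMT2D is intact or mutant.

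With a single library on each side nothing could be checked in replicates, and no p-value was computed. Exact (Clopper-Pearson) 95% intervals follow the shares; they hold for counting error alone, and peaks next to each other are not independent. Read depth is unknown, because a peak list holds no read counts. A peak that is missing from a list did not pass the authors' threshold there, which does not show that the mark was absent. Coordinates are those of the lists, on mm9 and counted from 1. Regions are given without gene names, since the table of genes at hand follows a different build from the lists.

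The mutant list covered 37.8 Mb and the WT list 27.8 Mb, a ratio of 1.36, while the ratio of peak numbers was only 1.11. The mutant peaks were thus longer: the median length was 1120 bp in the mutant list (quartiles 569 and 2812 bp). In the WT list it was 952 bp (quartiles 515 and 2314 bp). Peaks of at least 5621 bp held 50% of the covered length in the mutant, and peaks of at least 4326 bp did so in WT. The shortest peak was 200 bp in both lists. No pair of neighbouring peaks in either list was closer than 801 bp.

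The larger covered length was found on each of the 19 autosomes. The mutant over WT ratio of covered length ran from 1.18 on chromosome 3 to 1.49 on chromosome 11, with a median of 1.37 over the autosomes. Peak number gave a less even picture, with ratios from 0.907 on chromosome 3 to 1.28 on chromosome 17, and with 17 of 19 autosomes above 1. Chromosomes 3 and 13 had fewer peaks in the mutant (391 against 431, and 539 against 574) and still more covered length, 1.16 against 0.979 Mb and 1.45 against 1.19 Mb. Chromosome 11 held 4.18 Mb in the mutant and 2.80 Mb in WT, 11.1% of the mutant list, and chromosome 2 held 3.98 and 2.996 Mb. Chromosome 18 had the least in both lists, 0.667 and 0.553 Mb. The median peak was longer in the mutant on 18 of 19 autosomes. The exception was chromosome 12, whose medians were 1068 bp (mutant) and 1150 bp (WT).

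**Figure D1:**
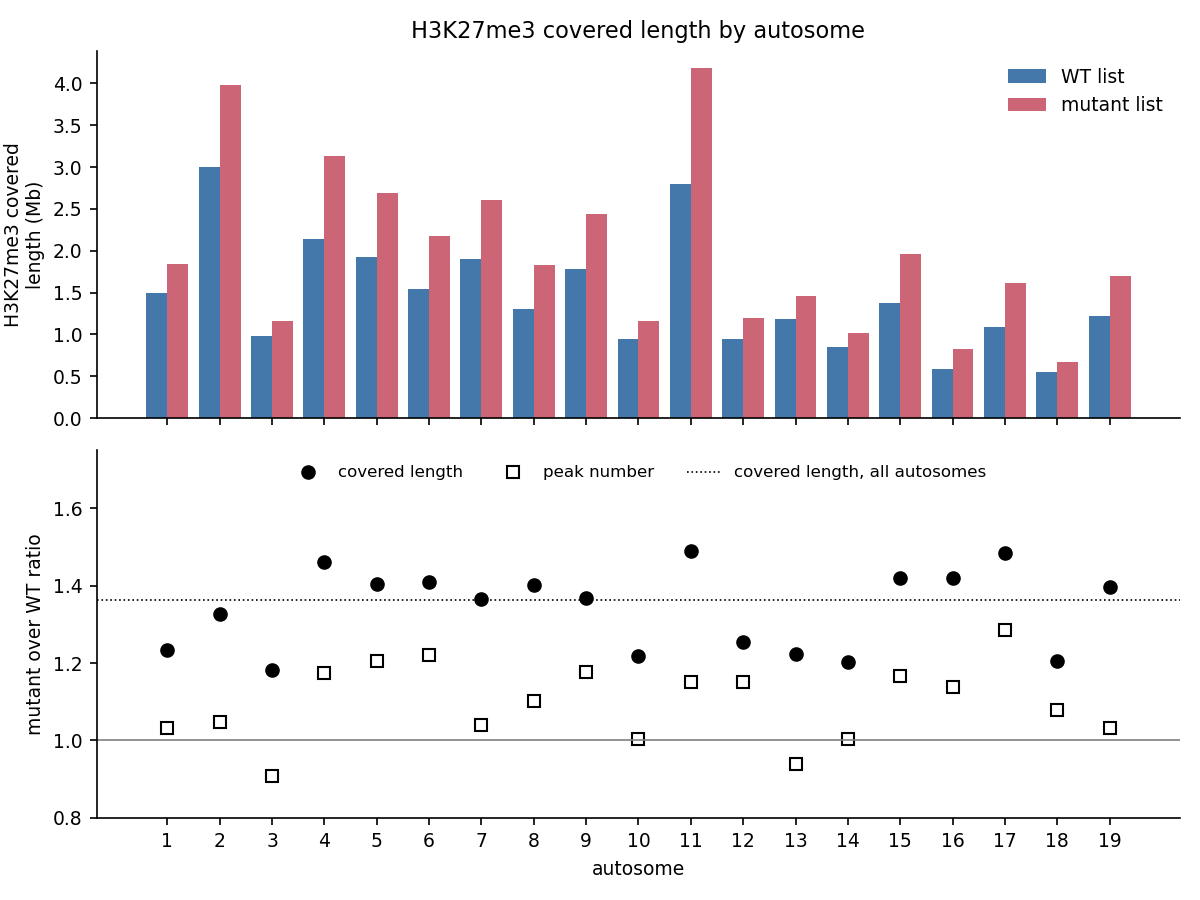
The upper bars give the H3K27me3 covered length in Mb of the WT and mutant lists on each autosome. The lower points give the mutant over WT ratio of covered length (filled) and of peak number (open squares); the dotted line is the length ratio over all autosomes (1.36), and each filled point lies above 1.

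Autosomes that were rich in H3K27me3 tended to have the higher ratio. WT covered 23.0 kb per Mb of chromosome 11, where the ratio was 1.49, and 6.13 kb per Mb of chromosome 3, where it was 1.18. Chromosome 16 went against this, with 5.94 kb per Mb in WT and a ratio of 1.42. Over the 19 autosomes Pearson's r between WT kb per Mb and the ratio was 0.64 and Spearman's rho 0.57, and r was 0.60 without the 2 autosomes farthest from the median density. The density of WT H3K4me3 peaks, a promoter mark, moved with the ratio to a like degree (r of 0.69, rho of 0.60, and r of 0.67 without the 2 farthest). These are descriptions over 19 chromosomes that come from the same pair of libraries, and WT covered length enters both sides of the first one.

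At a finer scale, 1645 autosomal windows of 1 Mb held a peak of either list. Covered length was greater in the mutant in 1089 of these (66.2%) and greater in WT in 556. The windows with more mutant H3K27me3 gained 10.8 Mb together, and those with more WT H3K27me3 held an excess of 0.816 Mb. The 10 windows with the greatest gain, out of 1089, made up 9.06% of it. The gain was thus uneven between windows, though most of it lay outside these 10. WT peaks nevertheless reached more windows, 1607 against 1506. Of the windows with a WT peak 91.3% also held a mutant peak, and of those with a mutant peak 97.5% held a WT peak. The 139 windows with WT peaks alone held 180 short peaks with a median of 709.5 bp, and the 38 with mutant peaks alone held 51 peaks with a median of 588 bp.

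The 3 windows with the largest mutant excess were dense in both lists. In chr11:96000001-97000000 H3K27me3 covered 478591 bp in the mutant and 317994 bp in WT, with 106 and 83 peaks. The neighbouring window chr11:95000001-96000000 had 228571 and 127908 bp, and chr8:123000001-124000000 had 300815 and 161712 bp. WT excesses were an order of size smaller. The largest was in chr5:76000001-77000000, where WT covered 23277 bp and the mutant 11576 bp. In chr2:59000001-60000000 WT had 11 peaks over 12179 bp and the mutant 1 peak of 1322 bp. In chr12:36000001-37000000 they covered 12502 and 3226 bp.

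The difference between the lists grew with peak length (a class such as 1000 to 2000 bp takes in peaks from 1000 bp to just under 2000 bp, and gaps are classed alike). Peaks under 500 bp were about as many in the mutant (3054) as in WT (3184), a ratio of 0.959, and peaks of 500 to 1000 bp numbered 3760 and 3673. The ratio of peak numbers was 1.14 at 1000 to 2000 bp, 1.16 at 2000 to 5000 bp and 1.40 at 5000 to 10000 bp, where the counts were 1362 and 971. At 10000 bp or more it was 1.90. In the 2 classes from 5000 bp upwards the mutant list covered 2.69 and 5.50 Mb more than WT, out of a total difference of 10.05 Mb. These are differences between class totals, and bases change class where peaks are joined or longer. WT peaks covered 68.6% of the length of mutant peaks of 5000 to 10000 bp and 79.7% at 10000 bp or more. At 2000 to 5000 bp this was 50.1%, and it was lower in the shorter classes. Peaks of at least 10000 bp made up 30.0% of the mutant covered length and 21.0% of that in WT, while they were 4.34% and 2.54% of the peaks. From 20000 bp upwards the mutant list had 166 peaks and the WT list 79, and from 50000 bp upwards 8 and 4.

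Whether a peak had a counterpart also followed its length. Over all lengths, 4646 WT peaks (35.0%) shared no base with a mutant peak and 7340 mutant peaks (49.9%) shared none with a WT peak. The order of these shares turned, to 56.5% in WT and 21.85% in the mutant, when the mutant list was limited to its strongest peaks up to the WT covered length (5639 peaks). This limit cut the mutant list alone, so the WT share could only rise. Strength was the −log10 q, and 97.55% of the highest of 10 equal parts of the mutant list by it were shared, against 17.9% of the lowest. The turned order was therefore largely built in and is no result about the genotypes. In WT the unshared share was 61.7% (60.0 to 63.4) under 500 bp, 25.5% (23.8 to 27.2) at 1000 to 2000 bp and 4.35% (3.58 to 5.23) at 2000 to 5000 bp. None of the 971 WT peaks of 5000 to 10000 bp was unshared, which allows a share of up to 0.379%. In the mutant list the unshared share was higher in each length class, at 82.2% (80.8 to 83.6) under 500 bp, 50.7% (48.9 to 52.5) at 1000 to 2000 bp and 16.5% (15.2 to 17.9) at 2000 to 5000 bp. Among the 1362 mutant peaks of 5000 to 10000 bp 22 were unshared, 1.62% (1.01 to 2.43). At 10000 bp or more 1 of 639 mutant peaks and none of 337 WT peaks was unshared, with intervals that overlap. A long peak has more bases with which to meet a peak of the other list, and this was not adjusted for.

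**Figure D2:**
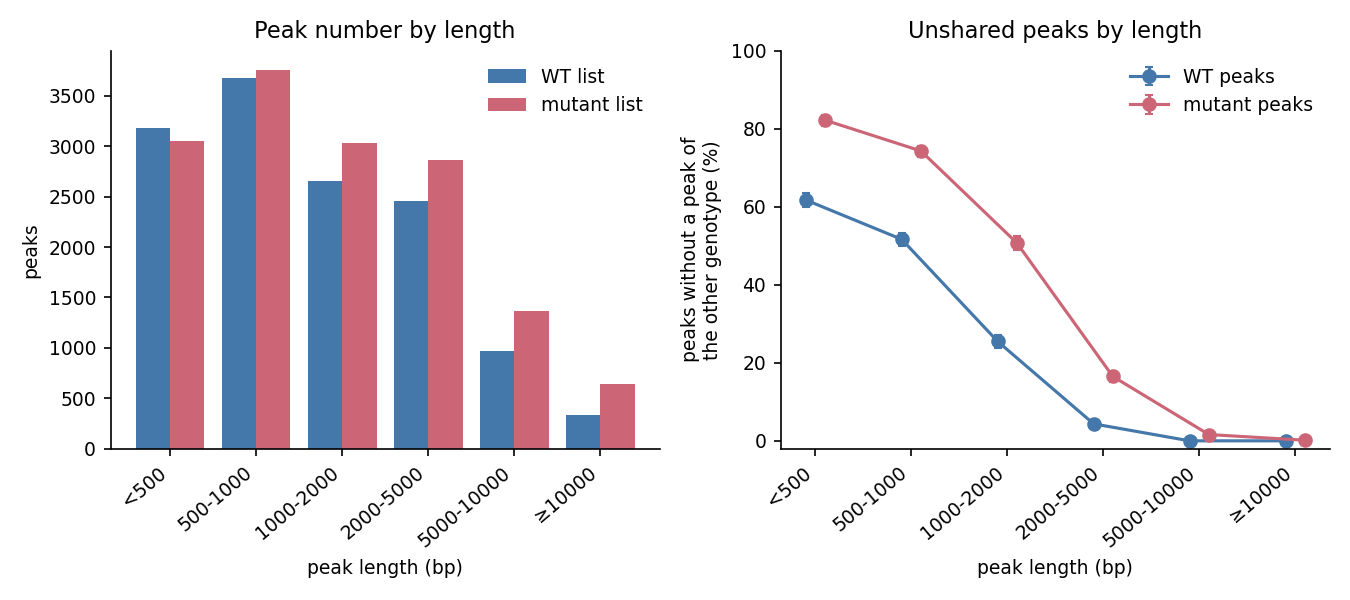
Left, the number of peaks of each length class (bp) in the WT and mutant lists. Right, the percentage of peaks of that class with no peak of the other genotype, with exact 95% binomial intervals; it falls from 61.7% (WT) and 82.2% (mutant) under 500 bp to near 0 from 5000 bp upwards.

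Most unshared peaks lay near H3K27me3 of the other genotype. The median distance to the nearest peak of the other list was 3886 bp for unshared mutant peaks and 3489 bp for unshared WT peaks. Of the unshared mutant peaks 69.1% (68.0 to 70.1) and of the WT ones 65.0% (63.6 to 66.4) were within 10000 bp of such a peak. Neighbours within a list were close as well, with 8065 gaps under 10000 bp among the 14712 mutant peaks and 6420 among the 13277 WT peaks. These shares are therefore not particular to unshared peaks. Isolated peaks, over 50000 bp from the other list, were a larger share of the unshared WT peaks, 18.3% (17.2 to 19.5, 852 peaks), than of the unshared mutant peaks, 10.5% (9.85 to 11.3, 774 peaks). The bases of these shares differ, at 4646 unshared WT and 7340 unshared mutant peaks. Over all peaks, 852 of 13277 in WT and 774 of 14712 in the mutant were isolated, which is a smaller contrast. The isolated peaks were short in both, with medians of 622 bp (WT) and 684.5 bp (mutant). Among unshared mutant peaks, 347 of the 5071 within 10000 bp of the other list reached 2000 bp. So did 99 of the 1495 between 10000 and 50000 bp away and 49 of the 774 isolated ones. In WT these counts were 55 of 3019, 15 of 775 and 37 of 852. Unshared peaks of 2000 bp or more were therefore not particular to places near the other list.

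The covered length of each list was split into bases common to both lists, gaps, flanks and unshared peaks. A gap here is the space between neighbouring peaks of one list that lie under a single peak of the other list, and a flank is the rest of a shared peak beyond its counterpart. The common part was 21.7 Mb, which is 78.3% of the WT list and 57.5% of the mutant list. Outside it the mutant had 16.1 Mb and WT 6.02 Mb. Flanks took 7.32 Mb in the mutant and 2.37 Mb in WT. Unshared peaks took 6.40 and 3.17 Mb, and gaps 2.35 and 0.478 Mb. Of the net difference of 10.05 Mb, 49.3% was thus in flanks, 32.1% in unshared peaks and 18.6% in gaps between peaks that the other list joined.

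**Figure D3:**
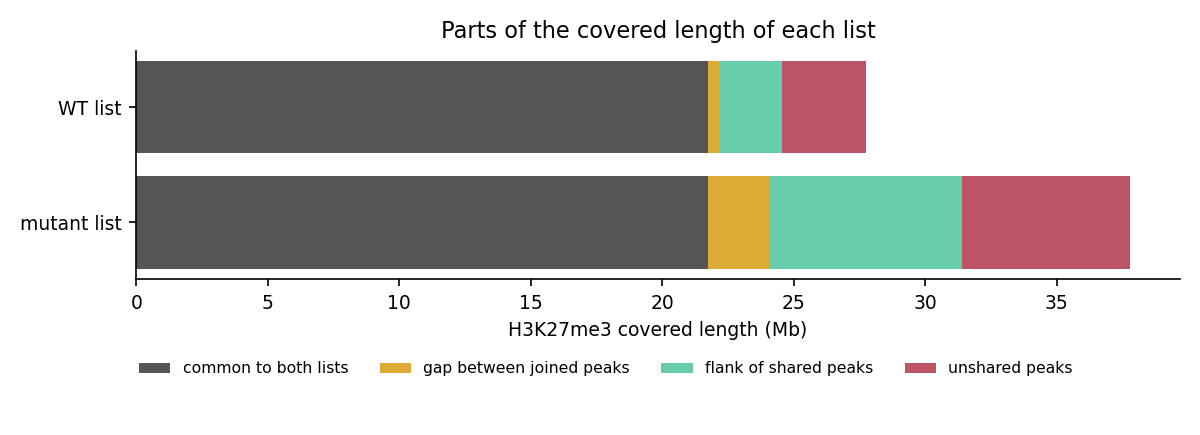
Covered length in Mb of the WT and mutant H3K27me3 lists, split into bases common to both lists (21.7 Mb), gaps between peaks joined by the list, flanks of shared peaks and unshared peaks. The mutant bar exceeds the WT bar in each of the last 3 parts, most of all in the flanks (7.32 against 2.37 Mb).

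The flanks were seen in simple pairs as well. In 5374 pairs 1 WT peak and 1 mutant peak overlapped each other and no further peak. The mutant peak was the longer of the pair in 68.9% (67.6 to 70.1). Median lengths were 2272 bp in the mutant and 1590 bp in WT, and the median difference within a pair was 504.5 bp, with quartiles of -163 and 1369 bp. In 1327 pairs the mutant peak was at least double the length of the WT peak, and in 486 pairs the WT peak was at least double the mutant one.

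Joining ran mainly from several WT peaks to 1 mutant peak. A total of 1242 mutant peaks (8.44%) overlapped 2 or more WT peaks, and 446 WT peaks (3.36%) overlapped 2 or more mutant peaks. The joining mutant peaks had a median length of 6942 bp and covered 12.3 Mb. They took in 941 pairs of WT peaks, 197 sets of 3, 68 sets of 4 and 36 sets of 5 or more. Joining WT peaks were shorter, with a median of 3573 bp and 2.20 Mb in all. Among them 439 took in 2 mutant peaks, 7 took in 3 and none took in more. On each of the 19 autosomes the mutant list had more joining peaks than the WT list, from 13 against 4 on chromosome 18 to 154 against 44 on chromosome 11. Regions in which several WT peaks met exactly 1 mutant peak numbered 1104, with 2627 WT peaks over 7.99 Mb under 11.1 Mb of mutant peaks. The counts of joining peaks depended on the threshold and the overlap asked for. With a −log10 p of at least 6 they were 777 in the mutant and 281 in WT. They were 997 and 196 when each joined peak had to be covered by at least 50%, and 1011 and 262 when peaks within 1000 bp were merged first. With the mutant list limited to its strongest peaks up to the WT covered length, 1051 mutant and 139 WT peaks joined others. Strength was the −log10 q, with a median of 5.94 for joining mutant peaks and 4.18 for all mutant peaks. The limit thus kept most joining mutant peaks by design and left the WT list whole, so these 2 counts do not check the direction of joining.

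Bridged gaps were short in both directions. Over all neighbouring WT peaks less than 10000 bp apart, 26.7% of the gaps were bridged by a mutant peak; in the opposite direction 5.62% of the gaps between mutant peaks were bridged by a WT peak. Between WT peaks 801 to 1000 bp apart, mutant peaks bridged 632 of 1075 gaps, 58.8% (55.8 to 61.7). The share was 40.1% (37.9 to 42.2) at 1000 to 2000 bp, 11.9% (10.5 to 13.5) at 2000 to 5000 bp and 0.750% (0.360 to 1.37) at 5000 to 10000 bp. WT peaks bridged 16.8% (15.0 to 18.8), 6.64% (5.74 to 7.63) and 0.390% (0.178 to 0.739) of the gaps between mutant peaks in the first 3 of these classes, and none of 1446 in the last. Where both neighbours had a counterpart, the shares were 80.9% (78.0 to 83.6) of 781 WT gaps and 42.0% (38.0 to 45.9) of 622 mutant gaps at 801 to 1000 bp. The mutant list again bridged more. A bridged gap has a counterpart on both sides by definition, so these shares could only be higher than those over all gaps. The median bridged gap was 1110 bp between WT peaks and 959 bp between mutant peaks, and the longest were 8624 and 2678 bp.

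**Figure D4:**
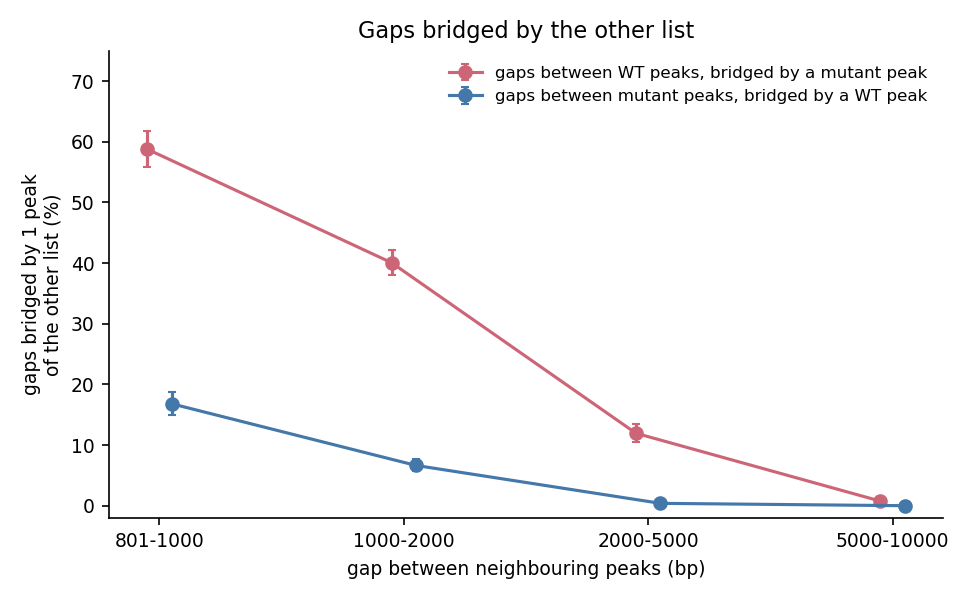
Percentage of gaps between neighbouring peaks of one H3K27me3 list that lay under a single peak of the other list, by gap length in bp, with exact 95% binomial intervals. Mutant peaks bridged 58.8% of the WT gaps of 801 to 1000 bp, and WT peaks bridged 16.8% of the mutant gaps of that length.

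The mutant peak that joined the most WT peaks was chr7:86718194-86765246, 47053 bp long with a fold enrichment of 5.19. It held 10 WT peaks, the longest of 11528 bp, which covered 56.7% of it and left gaps of 907 to 3209 bp. Next was chr6:52093631-52234687, where 9 WT peaks covered 91.7% of 141057 bp. The next mutant peaks took in 8 WT peaks each. In chr11:98147009-98203925 these covered 77.3% of 56917 bp, and in chr15:102924196-102981052 they covered 87.2% of 56857 bp. In chr17:25612616-25641024 they covered 47.4% of 28409 bp, and the fold was lower, at 3.91. In the opposite direction, the longest WT peak that joined mutant peaks in a set of 3 was chr13:49238806-49253894, 15089 bp long and 84.1% covered by them. The next were chr19:6528898-6541246 (81.6% covered), chr9:43545699-43555511 (58.2%), chr11:75775904-75783943 (76.8%) and chr13:21364752-21370202 (50.7%).

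The 4 longest domains lay at the same places in both lists. In WT the longest was chr15:102737612-102879810, 142199 bp, and the mutant peak over it, chr15:102735596-102904794, was 169199 bp and took in 3 more WT peaks. The second WT domain, chr2:74510648-74593548, was 82901 bp, inside a mutant peak of 116774 bp at chr2:74480256-74597029. The third, chr6:52134301-52205714, was 71414 bp inside the mutant peak of 141057 bp on chromosome 6 named above. On chromosome 11 the WT domain chr11:96110646-96171478 was 60833 bp, and the mutant domain over it, chr11:96106562-96238793, was 132232 bp and held 5 WT peaks. The fifth WT domain, chr11:96024906-96071046, was nearly as long in the mutant, at 46141 against 48389 bp. Mutant peaks covered these 5 WT domains in full. WT peaks covered between 91.7% and 95.2% of the 4 longest mutant domains, so most of the added length there was H3K27me3 that the WT list held as separate peaks. The fifth mutant domain by length was the joined peak chr11:98147009-98203925.

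Other marks were looked up at the gaps, to describe where they lay. Between WT peaks less than 5000 bp apart, 10.5% (9.04 to 12.0) of the gaps that the mutant bridged overlapped a WT H3K4me3 peak. Where both neighbours had a counterpart but were not bridged, 8.03% (6.64 to 9.61) did, and these gaps were longer, with a median of 2067 against 1106 bp. Among WT gaps of like length the shares were close: 13.0% (10.4 to 15.9) of those bridged and 12.1% (7.32 to 18.4) of those not bridged at 801 to 1000 bp, and 9.38% (7.498 to 11.6) and 8.50% (6.22 to 11.3) at 1000 to 2000 bp. Gaps between mutant peaks that WT bridged had a higher share with H3K4me3: 24.1% (20.2 to 28.3) overlapped a mutant H3K4me3 peak, against 7.24% (5.95 to 8.72) of the unbridged gaps with counterparts on both sides. WT H3K4me3 was there to the same degree, at 24.7% (20.8 to 29.0) and 7.45% (6.14 to 8.94). Among mutant gaps of like length the shares still differed: of the mutant gaps of 801 to 1000 bp 24.1% (19.1 to 29.8) of those bridged and 5.82% (3.64 to 8.75) of those not bridged overlapped mutant H3K4me3. H3K27ac, which marks active elements, was at 6.18% (4.15 to 8.81) of the bridged mutant gaps under 5000 bp, taking the mutant list. It was at 2.81% (2.02 to 3.81) of the unbridged ones with counterparts on both sides. H3K79me2 was at 1.99% (0.912 to 3.74) and 1.34% (0.806 to 2.08) of them in the mutant list, and at 4.42% (2.72 to 6.74) and 2.32% (1.60 to 3.24) in the WT list. At WT gaps under 5000 bp WT H3K79me2 was at 3.41% (2.60 to 4.38) of those bridged and 1.99% (1.315 to 2.88) of those unbridged with counterparts on both sides. WT H3K27ac was at 4.35% (3.43 to 5.43) and 3.46% (2.56 to 4.58) of them. In the mutant lists these shares were 1.41% and 0.884% for H3K79me2, and 3.29% and 3.17% for H3K27ac. The shares of these 2 marks were not split by gap length. Mutant H3K4me1 was rare at either kind of gap, at none of the 453 bridged mutant gaps (up to 0.811%) and at 4 of 1422 unbridged ones, 0.281% (0.0767 to 0.719). WT H3K4me1 was at 2.65% (1.38 to 4.58) and 1.69% (1.08 to 2.50) of them. The low share of mutant H3K4me1 was not particular to mutant gaps. At bridged and unbridged WT gaps it was 0.294% (0.0955 to 0.684) and 0.221% (0.0456 to 0.645), and that of WT H3K4me1 2.06% (1.44 to 2.85) and 1.99% (1.31 to 2.88). The sizes of the 2 H3K4me1 lists were not adjusted for.

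Fold enrichment is the authors' value per peak over background, and was read only within a list. In WT it ran from 2.53 to 6.58 with a median of 3.90, and in the mutant from 2.37 to 7.43 with a median of 4.09. Shared WT peaks had a median fold of 3.97, with quartiles of 3.72 and 4.32, and unshared ones 3.80, with quartiles of 3.62 and 3.99. In the mutant list the medians were 4.22 (3.92 to 4.62) for shared and 3.98 (3.76 to 4.21) for unshared peaks. The differences between the medians, 0.17 in WT and 0.24 in the mutant, were smaller than the spread within either class. The WT difference was 0.11 with a −log10 p of at least 6, and with the mutant list limited to the WT covered length the differences were 0.26 in WT and 0.057 in the mutant. That limit took out weak peaks of the mutant list alone, which by itself changes both differences. Joining mutant peaks had a median of 4.50 and mutant peaks with 1 counterpart 4.18.

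Much of this went with length. Among peaks under 500 bp shared and unshared peaks had the same median to 2 decimals, 3.81 in WT and 3.99 in the mutant. At 500 to 1000 bp the medians were 3.77 (shared) and 3.77 (unshared) in WT, and 3.97 and 3.95 in the mutant. At 1000 to 2000 bp the shared median was above the unshared one by 0.040 in WT and 0.065 in the mutant. The difference was larger at 2000 to 5000 bp, with 4.09 for 2352 shared and 3.90 for 107 unshared WT peaks, and 4.20 for 2389 shared and 4.03 for 472 unshared mutant peaks. At 5000 to 10000 bp the 1340 shared mutant peaks had a median of 4.58 and the 22 unshared ones 3.93. Across shared peaks Spearman's rho between length and fold was 0.52 in WT and 0.51 in the mutant, and across unshared peaks it was -0.027 and 0.0014. These describe peaks of 1 library each, in which length and fold come from the same reads.

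**Figure D5:**
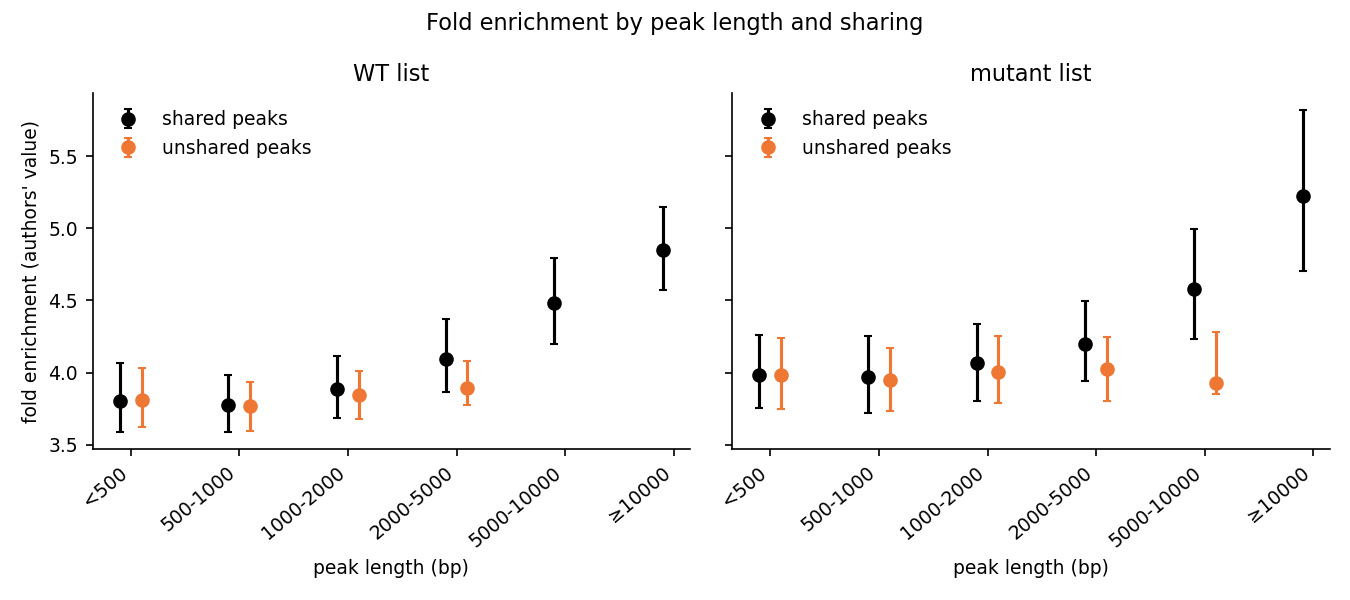
Fold enrichment (the authors' value, a ratio) by peak length class for shared and unshared peaks of the WT list (left) and the mutant list (right); points are medians and bars run from the lower to the upper quartile. Classes with fewer than 20 peaks are not drawn. From the shortest to the longest class the median fold of shared peaks goes from 3.81 to 4.85 in WT and from 3.99 to 5.22 in the mutant. It is lowest at 500 to 1000 bp in both lists and rises from there. The unshared medians stay between 3.77 and 3.90 in WT and between 3.93 and 4.03 in the mutant.

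Within a list, peaks of higher fold were more often shared. In 10 equal parts of the WT list by fold, 55.9% (53.2 to 58.6) of the lowest part and 91.3% (89.7 to 92.8) of the highest part had a mutant counterpart, while the 5 lower parts differed little, from 52.7% to 56.5%. In the mutant list the share was 34.6% (32.2 to 37.1) in the lowest part and 87.8% (86.0 to 89.4) in the highest. Length separated shared from unshared peaks further: 35.3% of the shortest of 10 equal parts of the WT list and all 1328 peaks of the longest part were shared, and in the mutant list 15.6% and 99.3%.

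A few unshared peaks of at least 1000 bp had high fold. In WT these were chr9:83340651-83341751 with a fold of 5.30, chr19:44856692-44857815 with 5.18 and chr1:184520904-184522148 with 5.12. The first was 99674 bp from the nearest mutant peak, while the second was 437 bp and the third 4190 bp away. In the mutant they were chr19:59295073-59296244 and chr13:96187691-96189285, both with 5.38, and chr2:152785632-152787089 with 5.37. The nearest WT peaks were 508, 23812 and 1140 bp away.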

How the data were processed

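Per the labels' protocols, libraries were amplified by PCR (10 cycles) and selected for sizes near 200 to 500 bp. The submitters' processing notes name Bowtie, MACS, MACS2, deepTools and mm9, with no versions or roles. Each H3K27me3 list is a MACS2 broad peak list of a single library. For every peak the authors deposited a ratio (fold enrichment), the −log10 of p and of q, and a score (the −log10 q times 10, as a whole number). The lowest −log10 p was 5.00 in both lists. The deposited scores of the other marks were not used, only their positions. Depth is not in the lists.

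Peaks were shared when they had at least 1 bp in common, and a peak joined others when it overlapped 2 or more of them. Length classes began at 500, 1000, 2000, 5000 and 10000 bp. Regions named were the 5 longest and the 5 with the most joined peaks of each list (ties by length), the 3 unshared peaks of at least 1000 bp with the highest fold, and the 3 windows of 1 Mb with the largest excess in each direction. Chromosome density used the last peak end over the 10 lists as the chromosome's extent. The members and classes were chosen with earlier results of these data known, and no gene list was run. Alternatives were a −log10 q of at least 3, the same number of strongest peaks, merging within 1000 bp, an overlap of at least 50%, peaks of at least 500 bp and autosomes only. The 2 input libraries were not used here. Overlap code was tested on simulated lists. Python 3.11.15, numpy 2.4.6, pandas 2.3.3, scipy 1.17.1 and matplotlib 3.10.9 were used.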

Additional observations from a re-analysis of the deposited data

How the results depend on the processing

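Over 8 settings and 10 results, 53 of 74 values stayed within 1.5 times of the reported value (shares: within their interval). This count includes values that a setting fixes or hardly touches, so it does not measure how firm the results are. With the same number of strongest peaks the ratio of peak numbers was 1.00 by construction. The ratio of peaks of at least 10000 bp stayed at 1.90 with a −log10 q of at least 3 and with peaks of at least 500 bp, which take out weak or short peaks. The share of WT peaks without a mutant peak was 33.9% with a −log10 q of at least 3, 29.8% with peaks of at least 500 bp and 45.95% with an overlap of at least 50%. With the same number of strongest peaks the shares were 36.7% in WT and 46.4% in the mutant. For mutant peaks without a WT peak the share was 46.65% with peaks of at least 500 bp, 48.7% after merging within 1000 bp and 66.95% with the 50% overlap. WT peaks that joined 2 or more mutant peaks numbered 262 after merging and 196 with the 50% overlap. Mutant peaks that joined 2 or more WT peaks numbered 1011 and 997 under these settings. A −log10 p of at least 6 in both lists, chosen after seeing the data, gave shares of 30.1% in WT and 47.9% in the mutant, 777 joining mutant and 281 joining WT peaks, and a difference of median fold of 0.11 between shared and unshared WT peaks. The mutant list limited to its strongest peaks of the WT covered length, also chosen after seeing the data, gave a ratio of peak numbers of 0.425, which the limit brings about in part and which turns its direction, shares of 56.5% and 21.85%, 139 joining WT peaks, and fold differences of 0.26 in WT and 0.057 in the mutant. With that list the order of the 2 shares was the opposite one, joining mutant peaks numbered 1051 and the ratio of peaks of at least 10000 bp was 1.89. This setting cut the mutant list alone, by −log10 q, which rose with length (Spearman's rho of 0.59 over all mutant peaks). Peaks of high −log10 q were also more often shared. The values under this setting were therefore largely fixed by the limit and do not check the difference between the lists. No paired analysis was possible because each genotype has 1 library. The cause of these changes was not tested, and depth limits what the lists show.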

Other observations

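Chromosome X carried little H3K27me3 in either list, 82 mutant peaks over 0.168 Mb and 73 WT peaks over 0.125 Mb. Its ratio of covered length, 1.34, lay within the range of the autosomes, and neither list had a peak on chromosome Y.

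The same −log10 p went with a higher −log10 q in the mutant list. At a −log10 p between 6.0 and 6.1 the median −log10 q was 3.83 for 627 mutant peaks and 3.64 for 570 WT peaks, and between 10.0 and 10.1 it was 7.52 for 43 and 7.20 for 39 peaks. A fixed −log10 q of 3 therefore kept 99.6% of the mutant and 96.4% of the WT peaks. The part of these values in the greater mutant lengths was not tested.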
